A study of Mus musculus with 2 samples.

Results

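The immediate early genes described here were 10 genes, Fos, Fosb, Jun, Junb, Jund, Egr1, Ier2, Ier3, Zfp36 and Atf3, out of 19057 genes named on the array. They were chosen by symbol, with earlier results of these data known. Every probe that the platform annotation maps to one of these symbols alone was taken, which gave 11 of the 45281 probes. Junb had 2 probes and each of the other genes had 1. Of the 10 genes, 7 encode transcription factors, namely the Fos and Jun proteins, Egr1 and Atf3. Zfp36 encodes an RNA-binding protein, and Ier2 and Ier3 are named for their immediate early induction. Gene expression was profiled on Illumina bead arrays in mouse hematopoietic stem and progenitor cells sorted as Flt3-low LSK, that is lineage-negative, Sca1-positive and c-Kit-positive. The control group was 1 array of cells labelled control, and the CA/CA group was 1 array of cells with the genotype CA/CA. The series concerns transgenic mice whose HSCs carry a constitutively active IKK2, the kinase that switches on canonical NF-kB signalling. The sources used here do not give the promoter or recombinase that drives the transgene, nor the strain, age and number of the mice.

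Immediate early genes are transcribed within minutes of a stimulus, without new protein synthesis, from factors already present in the cell such as SRF with its ternary complex partners and CREB. Fos and Jun proteins pair through leucine zippers to form the transcription factor AP-1, and Egr1 is a zinc finger factor. In mice, Egr1 is known for holding HSCs in quiescence and in the bone marrow niche, and Junb for limiting HSC expansion. Zfp36 encodes tristetraprolin, which binds AU-rich mRNAs and speeds their decay, and Ier3 is also a known NF-kB target.

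Each value below is the authors' normalized signal, on a linear scale that still holds an array background of 81.7 units. A probe counted as measured where it reached a background floor of 92 units, the background plus 4 SD. Differences are CA/CA minus control on the scale log2(signal + 16), which understates the difference of dim probes. Each group had 1 array, so no value carries a replicate error, no difference was tested, and the values compare 2 samples rather than 2 genotypes. Differences between probes of 1 gene had an SD of 0.24 on this scale over 3861 genes, which measures probe error only. The floor was reached by 37.0% of the probes on each array, a match fixed in advance by normalization to nearly the same distribution. In RNA from a whole sorted population, fewer cells of a type and less RNA per cell cannot be told apart.

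The promoters of Fos, Jun, Zfp36 and Junb are printed because the first 3 genes had some of the lowest CA/CA signals relative to control in the group and Junb was the 1 measured gene with a higher one. Sequences are from RefSeq, build GRCm38.p6, run 5′ to 3′ on the strand of the gene, and cover 250 bases before the annotated start and 50 from it onward. Capitals mark matches, on either strand, to the motifs described after the sequences. Fos lies at chr12:85473640-85473939 on the plus strand, Jun at chr4:95052173-95052472 on the minus strand, Zfp36 at chr7:28379179-28379478 on the minus strand and Junb at chr8:84978699-84978998 on the minus strand.
Fos: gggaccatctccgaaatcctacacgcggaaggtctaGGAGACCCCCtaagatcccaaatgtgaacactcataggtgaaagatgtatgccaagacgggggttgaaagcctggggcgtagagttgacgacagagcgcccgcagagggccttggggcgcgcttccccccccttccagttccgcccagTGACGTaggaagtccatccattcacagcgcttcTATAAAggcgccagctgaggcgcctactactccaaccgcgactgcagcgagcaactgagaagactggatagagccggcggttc
Jun: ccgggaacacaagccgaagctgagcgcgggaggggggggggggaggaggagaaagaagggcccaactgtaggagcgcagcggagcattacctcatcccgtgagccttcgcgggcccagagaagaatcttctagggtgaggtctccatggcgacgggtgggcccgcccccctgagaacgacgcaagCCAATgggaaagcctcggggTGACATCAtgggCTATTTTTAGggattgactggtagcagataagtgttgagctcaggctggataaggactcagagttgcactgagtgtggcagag
Zfp36: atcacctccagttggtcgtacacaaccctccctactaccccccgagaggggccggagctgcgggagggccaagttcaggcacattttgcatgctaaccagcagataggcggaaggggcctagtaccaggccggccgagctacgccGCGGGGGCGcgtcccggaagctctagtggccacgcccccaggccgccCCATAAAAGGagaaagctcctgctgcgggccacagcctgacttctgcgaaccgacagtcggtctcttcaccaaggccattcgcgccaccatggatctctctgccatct
Junb: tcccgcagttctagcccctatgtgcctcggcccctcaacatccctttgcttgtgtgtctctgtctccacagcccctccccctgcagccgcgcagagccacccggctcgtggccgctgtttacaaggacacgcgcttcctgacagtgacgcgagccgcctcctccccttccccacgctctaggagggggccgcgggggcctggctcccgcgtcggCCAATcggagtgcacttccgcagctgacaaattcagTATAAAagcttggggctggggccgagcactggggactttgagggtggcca

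Motifs were searched on both strands of the windows of 8 genes of the group, and the same search over all 32851 promoters gave the background. No window of Egr1 or Ier2 was searched. The search of the group skipped chromosome 18, where Egr1 lies, and there was no promoter entry for Ier2. The Fos window held TGACGT, the core of the cyclic AMP response element (CRE) that CREB binds, with its first base at position -66, and the Atf3 window held its reverse complement ACGTCA at -8. TGACGT occurred in 7.51% of all promoters. The full CRE TGACGTCA, which contains it, occurred in 1.79% and in none of the 8 windows. The Jun window held TGACATCA, a site that AP-1 and ATF proteins bind in that promoter, at -45, a motif found in 3.62% of all promoters. The Zfp36 window held a CArG box, the motif of SRF, at -58, and this was the only CArG box among the 8 windows, against 1.63% of all promoters. GCGNGGGCG, the motif of Egr proteins, lay in the Zfp36 window at -105 and in the Fosb window at -50, and in 5.55% of all promoters.

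The NF-kB consensus matched the Fos window at -214, the Fosb window at -188 and the Ier3 window at -92, and 4.51% of all promoters. The MEF2 motif matched Jun at -33 and Atf3 at -22, against 0.557% of all promoters. TATAAA stood at -33 in Fos and at the annotated start in Junb, and in 13.6% of all promoters. CCAAT stood in the Jun, Junb, Ier3 and Atf3 windows and in 37.4% of all promoters. The AP-1 motif TGANTCA, present in 7.81% of all promoters, was in none of the 8 windows, and the Jund window held none of the motifs. A match is a run of letters in these windows and not a measured binding site, and no match says nothing about sites elsewhere.

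Fos, Zfp36 and Egr1 were at least 2-fold lower in CA/CA than in the control, and Junb was the 1 measured gene of the group with a higher signal in CA/CA. Of the 9 genes measured on at least 1 array, 3 were at least 2-fold lower, where 1.67% of the 10118 genes measured across the array were. The group was chosen with earlier results of these data known, so these shares describe it and test nothing. None was at least 2-fold higher, where 1.31% of all measured genes were. With both arrays required to reach the floor, 3 of 8 genes of the group were at least 2-fold lower, against 1.87% of 8500 genes. Of the same 8 genes, 7 had a lower signal in CA/CA, where 48.6% of those 8500 genes did. The median difference was -0.39 over the 9 genes, which include Ier2, measured only through the control array, and 0.01 over all measured genes. Over the 8 genes above the floor on both arrays it was -0.65, and over the 9 genes with the background subtracted -1.59. The genes differed among themselves, from -1.41 for Fos to 0.39 for Junb. Egr1, at -1.06, was the gene just inside the 2-fold threshold and Jun, at -0.91, the one just outside it.

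**Figure D1:**
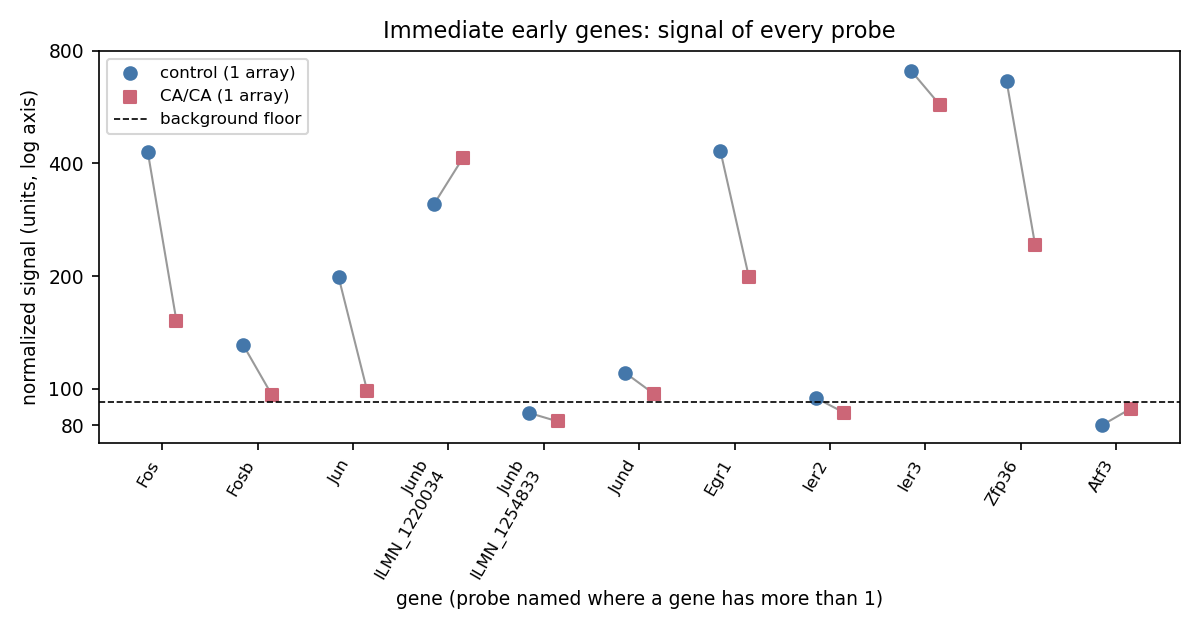
Normalized signal (units, log axis) of the 11 probes of the 10 genes on the control array (circles) and the CA/CA array (squares), 1 array each, with the background floor of 92 units dashed. Fos, Jun, Egr1 and Zfp36 show the longest downward lines, Junb probe ILMN_1220034 goes up, and the other Junb probe and Atf3 stay under the floor on both arrays.

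Among the Fos proteins, Fos had a control signal of 429 and a CA/CA signal of 152, a difference of -1.41 on the log2(signal + 16) scale. Fos, the classical immediate early gene, encodes a protein that binds DNA only as a dimer with a partner such as a Jun protein. Above the array background its CA/CA signal was 20.2% of the control one, and its difference took place 57 from the lowest among the 8500 genes above the floor on both arrays. Fosb, which encodes a Fos relative, was dimmer, at 131 units in control cells and 96.4 in CA/CA cells, a difference of -0.39. Its CA/CA signal stood 4.39 units above the floor, so the array hardly separated it from background there, and 11.8% of genes had a lower difference. The Fos relative Fosl2 had a control signal of 189 and a CA/CA signal of 121, a difference of -0.58, which lay within 2-fold.

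Among the Jun proteins, the genes did not share a direction. Jun, whose protein is the main activating partner of Fos, had a control signal of 199 and a CA/CA signal of 98.6, a difference of -0.91. The control signal stood 117 units above the array background and the CA/CA signal 16.9 units, 14.4% of it, so the Jun probe was close to the floor in CA/CA. Its difference took place 210 from the lowest of 8500 genes. Junb, whose protein can oppose Jun at some promoters, had a control signal of 312 and a CA/CA signal of 413 with probe ILMN_1220034, a difference of 0.39, and 10.2% of genes had a higher one. The other Junb probe, ILMN_1254833, was at 86.2 and 81.9, below the floor on both arrays, so a single probe carries the Junb difference. Jund, which encodes the broadly expressed Jun protein, was at 111 units in control cells and 97.2 in CA/CA cells, a difference of -0.16 that is smaller than the spread between probes.

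Atf3, the stress-induced member of the ATF/CREB family, was not well above background on either array, with a control signal of 79.99 and a CA/CA signal of 88.6. No fold is given for it. Few genes of the array reached 2-fold, 1.67% lower and 1.31% higher of the 10118 measured. In the list of other AP-1 genes, 8 of the 12 genes on the array were measured. Of the 8, 0 were at least 2-fold higher or lower, with a median difference of -0.05. Apart from Fosl2, the largest differences were those of Batf2, an interferon-inducible gene at 0.33, Jdp2, a repressor of AP-1 at -0.33, and Atf4, the amino acid stress factor at 0.29. The 2 Atf4 probes differed by 0.45 and 0.14. The Maf relatives Maf, Maff and Mafk, and Batf3, were below the floor on both arrays.

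Egr1 had a control signal of 433 and a CA/CA signal of 199, a difference of -1.06. Its CA/CA signal above the array background was 33.3% of the control one, and 1.49% of genes had a lower difference. In the list of Egr and Nr4a genes with the Egr corepressors, Nab1 was the 1 measured gene of 8. Nab1, a corepressor that binds Egr proteins, had a control signal of 149 and a CA/CA signal of 177, and its 4 measured probes were higher in CA/CA by 0.15 to 0.28. Egr2, Egr3, Egr4, Nr4a1, Nr4a2, Nr4a3 and Nab2 were below the floor on both arrays, so the arrays give no comparison for the other Egr genes.

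Zfp36 had a control signal of 664 and a CA/CA signal of 242, a difference of -1.40 that took place 60 from the lowest of 8500 genes. Above background, the CA/CA signal was 27.5% of the control one. Its relative Zfp36l1, which also encodes an mRNA decay factor, had a control signal of 502 and a CA/CA signal of 323, a difference of -0.49, with its 2 measured probes at -0.70 and -0.27. Zfp36l2, another relative, was below the floor in control cells, with 101 units in CA/CA cells, at least 1.09-fold higher on the signal scale. Of 14 mRNAs known to be bound by tristetraprolin, 6 were measured, 5 were below 0 and the median difference was -0.22. Of the 6, 0 were at least 2-fold higher or lower, where 1.67% of all measured genes were lower and 1.31% higher by that much. The chemokine gene Ccl4 was at 213 units in control cells and 137 in CA/CA cells, with its 2 probes at -0.81 and -0.15. The cytokine gene Tnf, the textbook target of tristetraprolin, had a difference of 0.05, from 124 in the control to 128 in CA/CA. Plaur, the urokinase receptor, and Vegfa, a vascular growth factor, had differences of -0.26 and -0.17, and Ier3 belongs to this list as well.

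Ier3, which encodes a stress-responsive regulator of cell survival, was at 707 units in control cells and 574 in CA/CA cells. Its difference of -0.29 was little more than the spread between probes, and 16.3% of genes had a lower one. Above background, the CA/CA signal was 78.7% of the control one. Ier2 was above the floor in the control alone, at 94.6, with 86.4 in CA/CA, which puts it at least 1.03-fold lower on the signal scale. It was counted as measured only through the control array, 2.64 units over the floor. Of the relatives, Ier5l was at 114 units in control cells and 98.2 in CA/CA cells, a difference of -0.19, and Ier5 was below the floor on both arrays.

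**Figure D2:**
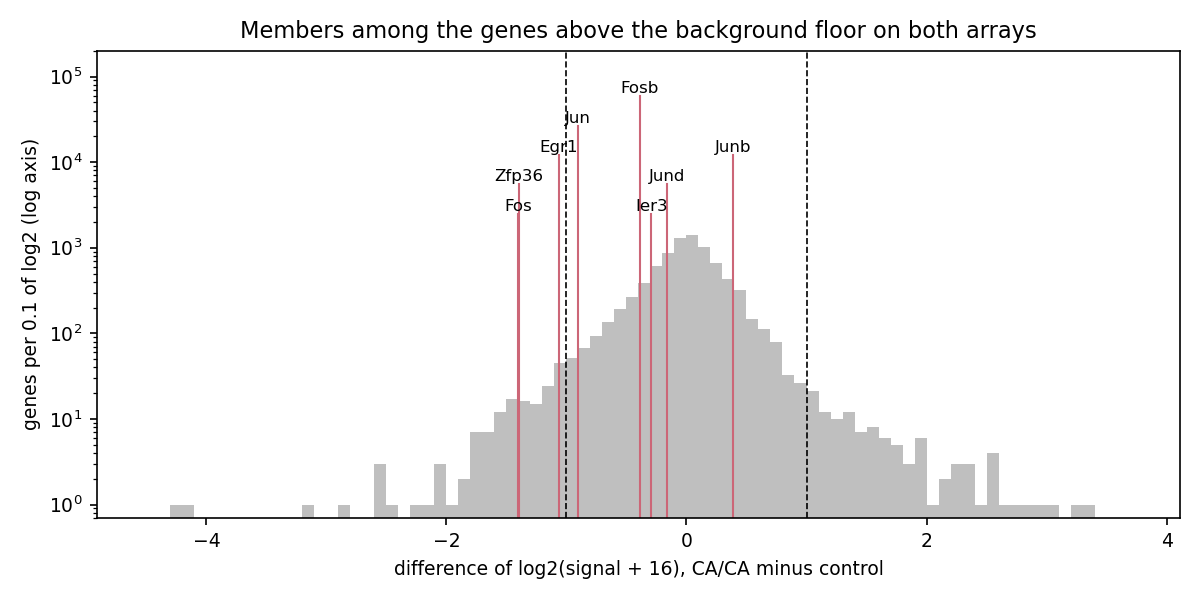
Histogram of the difference of log2(signal + 16), CA/CA minus control, for the 8500 genes above the floor on both arrays (genes per 0.1 of log2, log axis), with the 8 immediate early genes above the floor on both arrays drawn as lines and the 2-fold thresholds dashed. Fos, Zfp36 and Egr1 lie beyond the lower threshold, Jun just short of it, and Junb alone lies to the right of 0.

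The measured genes for the factors that switch these genes on all lay within 2-fold, as did most measured genes. Of all 10118 measured genes, 1.67% were at least 2-fold lower and 1.31% at least 2-fold higher. In the list of SRF, its ternary complex partners, and CREB factors with their coactivators, 10 of 12 genes were measured, 0 were at least 2-fold higher or lower and the median was -0.07. Srf itself had a control signal of 229 and a CA/CA signal of 208, a difference of -0.07. Elk4, a ternary complex factor that works with SRF, had the largest difference, -0.32, with its measured probes at -0.62 and -0.03. Elk3, another ternary complex factor, had a difference of -0.17 from its 1 probe above the floor, and the CREB coactivator gene Crtc3 one of -0.15. Crtc1, a further coactivator, was above the floor in the control alone and at least 1.11-fold lower on the signal scale. Creb1 was at 101 units in control cells and 108 in CA/CA cells, a difference of 0.06.

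The list of MAP kinases and their activating kinases also held Rps6ka3 and Rps6ka5, kinase genes that belong to neither class. Of its 16 genes on the array, 14 were measured, and their median was -0.05. Of the 14, 0 were at least 2-fold higher or lower, where 1.67% of all measured genes were lower and 1.31% higher by that much. Mapk14, a stress-activated kinase of the p38 class, had the largest difference, from 1190.2 in the control to 805 in CA/CA, or -0.55. Map2k5, which activates the kinase encoded by Mapk7, had a difference of -0.24, with its 3 probes at 0.02, -0.13 and -0.61. Map2k2, an ERK pathway kinase, and Map2k4, a JNK pathway kinase, had differences of 0.26 and 0.24. These lists give mRNA levels, and kinase activity was not measured.

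Other early response genes lay on both sides of 0. Of 25 on the array, 21 were measured, with 10 below 0, 11 above 0 and a median of 0.00. Bhlhe40 was measured only through the CA/CA array and Ccn2 only through the control array, so their directions were fixed. Of the 21, 1 was at least 2-fold lower and 1 at least 2-fold higher, against 1.67% and 1.31% of all measured genes. Csrnp1, which encodes a nuclear protein of the early response, had a control signal of 542 and a CA/CA signal of 229, a difference of -1.19. Gadd45g, a growth arrest and stress gene, was the one at least 2-fold higher, from 139.6 in the control to 357 in CA/CA, with its 2 probes at 0.80 and 1.49. Rgs1, a regulator of G protein signalling, had a difference of -0.83, and its 3 probes ranged from -1.05 to -0.72. Id3, an inhibitor of helix-loop-helix factors, was at 169.8 units in control cells and 96.4 in CA/CA cells, a difference of -0.73.

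**Figure D3:**
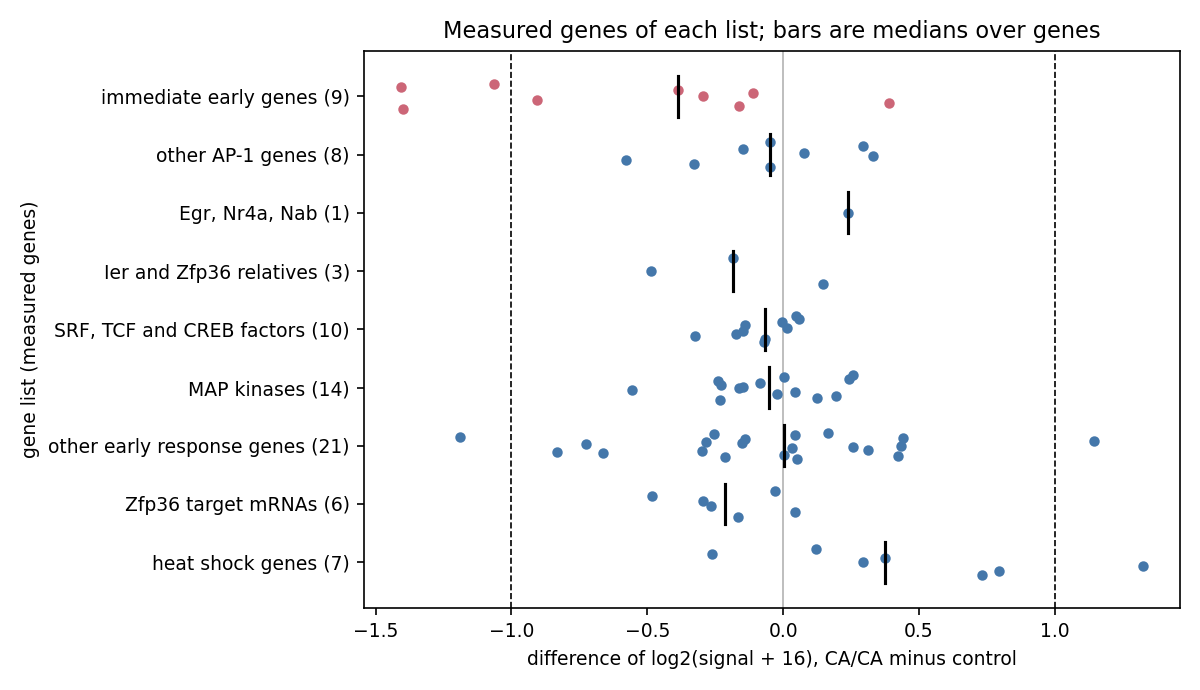
Difference of log2(signal + 16), CA/CA minus control, for each measured gene (points) of the immediate early genes and of 8 related lists, with the number measured in brackets, the median over genes as a bar and the 2-fold thresholds dashed. The immediate early genes have a median of -0.39, the other early response genes lie on both sides of 0 around a median of 0.00, and the heat shock genes have a median of 0.37.

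Heat shock genes, which also respond to stress and to cell handling, lay mostly on the other side of 0. Of 10 on the array 7 were measured, 6 were above 0 and the median was 0.37. Of the 7, 1 was at least 2-fold higher, against 1.31% of all measured genes. Hspd1 and Hspe1, the mitochondrial chaperonin and its cofactor, had differences of 1.32 and 0.80, with the 2 Hspd1 probes at 1.68 and 0.97. Hsph1 and Hsp90aa1, cytosolic chaperones, had differences of 0.73 and 0.37, with the 3 Hsp90aa1 probes at 0.10, 0.85 and 0.17. Dnajb1 was the measured gene below 0, from 1594 in the control to 1328 in CA/CA, a difference of -0.26. Dnaja1 was measured only through the CA/CA array, so it had to be above 0. The strongly stress-inducible genes Hspa1a and Hspa1b were below the floor on both arrays. How handling or sorting bears on the immediate early genes was not tested.

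Markers of several cell types moved between the same 2 arrays. Of the stem and progenitor markers, Kit had a difference of -0.18, less than the SD between probes, and its 2 measured probes lay at 0.21 and -0.58. Procr was at 101 and 103, Cd34 at 287 and 153, and Slamf1 was above the floor in the control alone. Flt3 was below the floor on both arrays, for a population sorted as Flt3-low. The 6 measured B progenitor markers of 7 had a summed signal of 9586 for control against 979 for CA/CA, and Pax5 was below the floor. Blnk was measured only through the control array, so it had to be lower in CA/CA. Igll1, Vpreb3 and Vpreb1, genes of the pre-B cell, had the largest differences of this list, -4.22, -4.19 and -3.13. All 9 granulocyte markers were measured and summed to 60262 and 32864, with 8 below 0 and 1 above. Fcnb, S100a9 and S100a8 had the largest differences of that list, -2.50, -2.05 and -1.88, and Ngp was the marker above 0, at 0.42.

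The 8 erythroid markers on the array summed to 3009 for control against 11007 for CA/CA, with 7 above 0 and 1 below. Ermap, 1 of the 7, was measured only through the CA/CA array, so it had to be above 0. Car1, Aqp1 and Klf1 had the largest differences, 3.36, 3.04 and 2.89, and Hba-a1 was the marker below 0, at -0.14. The monocyte and macrophage markers, 7 measured of 8, summed to 8240.3 and 6896, with Ly6c1, Csf1r and Lyz2 at -0.31, 0.27 and -0.26 and Itgam below the floor. Adgre1 of that list was measured only through the control array. The 5 megakaryocyte markers summed to 824 and 521, with Gp9 and Itga2b at -1.37 and -0.41 and Gp1bb at least 1.17-fold lower, and 2 of the 5 were measured only through the control array. The T and NK cell markers, 7 measured of 8, summed to 4818 and 1812, of which Nkg7 held 4190.3 and 1055. In that list Cd3d had a difference of 0.52, Cd3e was at least 1.31-fold higher, and Cd8a was below the floor. Cd3e, Cd4 and Klrd1 were measured only through the CA/CA array, so they had to be higher there. The endothelial and stromal markers, 6 measured of 8, summed to 1044 and 557, but 4 of the 6 were measured only through the control array, so those 4 had to be lower in CA/CA. Emcn, Sparc and Cxcl12 were at least 3.36-fold, 1.73-fold and 1.71-fold lower, and Cxcl12 rested on 1 probe above the floor. Kdr and Col1a1 were below the floor on both arrays. The part of these cell types in the immediate early gene differences was not tested.

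**Figure D4:**
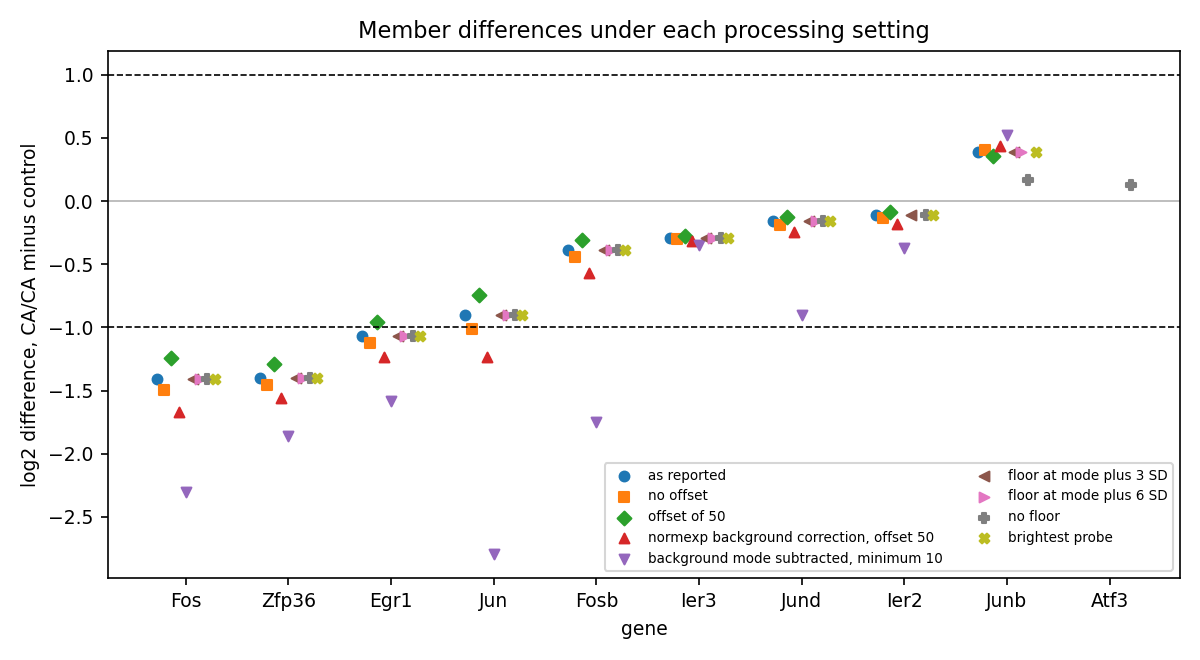
Log2 difference, CA/CA minus control, of each gene under the reported setting and 8 alternatives of background handling, floor and probe choice, with the 2-fold thresholds dashed. Every measured gene keeps its sign, which settings that mostly rescale or repeat the same probe signals could hardly change. Fos and Zfp36 stay beyond the lower threshold under each setting, and Jun crosses it under 3 of them.

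Handling of the background changed the sizes and, with a single measured probe behind each gene, could hardly change a direction. With the background subtracted, Jun had a difference of -2.79 and Fosb one of -1.75, against -0.91 and -0.39 as reported, and 5 genes of the group were then at least 2-fold lower, where 9.54% of all measured genes were. With an offset of 50 in place of 16, Egr1 had a difference of -0.96, within 2-fold. Junb remained above 0 in each setting, from 0.16 with both of its probes averaged to 0.53 with the background subtracted.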

How the data were processed

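Total RNA of 2 sorted samples, 1 control and 1 CA/CA, was amplified and biotin-labelled with Illumina kits, per the labels' protocols, and the submitters' processing notes name BeadStudio. Analysis started from the intensity of each of 45281 probes as deposited, already normalized between arrays, with a median of 86.1 on both and sorted columns that differed by at most 0.0022 in log2. The sources used here do not name the normalization method. A second deposited table had 4 value columns whose headings match no sample label, and these were not used. The array background of 81.7 units was the centre of the narrowest range that held 25% of the values; values under it scattered around it with an SD of 2.57. Of the probes, 34885 carry 1 gene symbol, 18 several and 10378 none, and genes were named from the first kind alone. Probes of a gene above the floor on at least 1 array were averaged. An at-least fold sets the brighter signal against the higher of the floor and the dimmer signal. All members were named, with up to 4 genes of each related list and 3 of each marker list, those with the largest differences; a few others were chosen after their values were seen. The members and lists were chosen with earlier results of these data known. With 1 array per group no test was made, and precision is limited by the number of arrays. The steps were tested on simulated data. Alternatives were no offset, an offset of 50, normexp correction, background subtraction, other floors, the brightest probe and other fold thresholds. Python 3.11.15, numpy 2.4.6, pandas 2.3.3, matplotlib 3.10.9, R 4.3.3 and limma 3.58.1 were used.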

Additional observations from a re-analysis of the deposited data

How the results depend on the processing

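The 71 alternative values of the 9 measured genes all kept the reported sign, and 62 moved by less than 0.24, the SD between probes of 1 gene. Each measured gene rested on 1 measured probe, so the settings mostly rescaled or repeated the same signals and could hardly change a sign. The exception was Junb with no floor, where its other probe was averaged in. The count of measured genes of the group at least 2-fold lower, reported as 3, was 5 after subtraction of the background, with Jun and Fosb added, and 0 at a 3-fold threshold. The median difference of -0.39 became -1.59 after subtraction and -0.65 with the floor at 6 SD, where Ier2 is no longer measured. Over all genes, the 169 at least 2-fold lower became 273 after normexp correction, 965 after subtraction, 585 at a 1.5-fold threshold and 36 at a 3-fold threshold. The 133 at least 2-fold higher became 707 after subtraction, 416 at a 1.5-fold threshold and 56 at a 3-fold threshold. Of 24 alternative list medians, 1 moved by more than 0.24, that of the heat shock genes, to 0.73 with the brightest probe. The medians of the other lists were themselves at most 0.24 in size, so this rule could not flag one that vanished. With no floor, the median of the Egr and Nr4a list went from 0.24 to 0.006. That of the tristetraprolin list went from -0.22 to -0.02. Signal over background limits Fosb, Jun, Jund and Ier2, whose CA/CA signals lay near the floor. No paired analysis was possible because each group has 1 array.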
